A study of Mus musculus with 6 samples.

Results

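Tnfrsf18, its ligand gene Tnfsf18 and 8 genes of regulatory and activated T cells were followed in mouse tongue. Tnfrsf18 was picked for its higher signal after 4NQO in these arrays, so its own difference is given as a description with no test. The others are Tnfsf18, Tnfrsf4, Tnfrsf9, Foxp3, Ctla4, Il2ra, Icos, Ikzf2 and Ikzf4, and the question was whether they rose with it. Of the 10 genes, 9 had a probe set annotated to that symbol alone, out of 18193 genes measured in this way. Tnfsf18, the ligand of Tnfrsf18, had none and was not measured.

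The tongues came from C57BL/6J mice, an inbred laboratory strain, and the sample titles give no age. The 3 control mice were untreated, and the 3 others received 4-nitroquinoline 1-oxide (4NQO), a DNA-damaging carcinogen, in drink at 100 μg/ml for 8 weeks. Total RNA of each tongue was hybridized to 1 Affymetrix mouse array, and the values are log2 signals, so a difference of 1 is a doubling. A whole tongue holds epithelium, muscle, connective tissue, vessels and immune cells, and in such bulk RNA fewer cells of a type and less RNA per cell cannot be told apart.

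Tnfrsf18 encodes Gitr, a costimulatory receptor of the TNF receptor superfamily that regulatory T cells carry at rest and that other T cells, NK cells and some other cells display after activation. Regulatory T cells restrain immune responses. They are defined by the transcription factor Foxp3 and usually carry the IL-2 receptor chain CD25 (Il2ra) and the inhibitory receptor Ctla4, while Tnfrsf4 (Ox40), Tnfrsf9 (4-1BB) and Icos are costimulatory receptors of activated T cells, regulatory ones included. Ikzf2 (Helios) and Ikzf4 (Eos) are Ikaros family transcription factors found in regulatory T cells, but cells other than T cells also transcribe Ikzf2.

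Tnfrsf18 and Tnfrsf4 lie close together on chromosome 4, and the 250 bases before their start sites are shown because the signals of these genes are set side by side later. The sequences are from RefSeq on GRCm38.p6, both on the plus strand, at chr4:156026072-156026321 for Tnfrsf18 and chr4:156013445-156013694 for Tnfrsf4. Capitals mark the match to a searched motif.
Tnfrsf18: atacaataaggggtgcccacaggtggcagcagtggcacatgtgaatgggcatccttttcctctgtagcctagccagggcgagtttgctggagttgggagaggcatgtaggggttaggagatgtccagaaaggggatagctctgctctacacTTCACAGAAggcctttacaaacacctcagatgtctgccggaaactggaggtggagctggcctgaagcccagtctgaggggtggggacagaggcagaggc
Tnfrsf4: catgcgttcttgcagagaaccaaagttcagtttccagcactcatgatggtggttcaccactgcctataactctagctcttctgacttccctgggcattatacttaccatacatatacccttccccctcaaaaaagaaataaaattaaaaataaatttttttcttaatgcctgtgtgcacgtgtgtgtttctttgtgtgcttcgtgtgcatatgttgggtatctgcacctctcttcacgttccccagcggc
Both strands were searched for an AP-1 motif (TGANTCA), an antioxidant response element (TGACNNNGC), an NF-kB-like motif (GGNNTTTCC) and a STAT-like motif (TTCNNNGAA), which 6.75%, 10.2%, 4.93% and 7.02% of 32851 RefSeq promoters of this length held. The Tnfrsf18 window held 1 STAT-like match, TTCACAGAA, whose first base lay at -99 from the start, and no match to the other motifs. The Tnfrsf4 window held no match to any of them. GC content was 56% for Tnfrsf18 and 42.8% for Tnfrsf4. Promoters were listed for 7 of the 10 genes. Among the others, the antioxidant response element letters stood before Tnfsf18 (TGACATTGC, first base at -25) and before 1 of 2 Tnfrsf9 starts (TGACACTGC, at -43). The other Tnfrsf9 start had an AP-1, an NF-kB-like and a STAT-like match, 1 of 2 Foxp3 starts had a STAT-like match, and the windows of Ctla4 and Il2ra had none. A match is a run of letters and does not show binding, and an absent match says only that these letters are not in the window.

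Across all genes, limma with Benjamini-Hochberg adjustment over 18193 genes called 23 genes higher and 1 lower in 4NQO tongues at an adjusted p under 0.05, which is 0.126% and 0.0055% of the genes tested. That count depended on single arrays, with 0 genes called without control 2 (1333 at an unadjusted p under 0.05), 1 without 4NQO 2 and 10 without 4NQO 1. Array medians lay between 4.45 and 4.60. Array control 3 and array 4NQO 2 had weaker 5′ than 3′ Gapdh signal by 1.67 and 1.07 on the log2 scale, against 0.0858 to 0.469 on the other arrays. The same difference for beta-actin did not set these arrays apart, with 1.12 on 4NQO 1, 1.01 on control 3, 0.954 on 4NQO 2 and 0.549 to 0.830 on the others. All 10 keratinocyte and all 10 skeletal muscle markers had a mean signal above a reference of 4.53, the 95th percentile of 80 probe sets of olfactory and vomeronasal receptors, which a tongue should hardly transcribe, pooled over the 6 arrays. Taken on each array alone that percentile was 4.18 to 4.55, and Tnfrsf9 and Icos were then above it on 5 and 6 arrays.

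Tnfrsf18 had a log2 signal of 5.06, 4.997 and 4.96 in control tongues 1, 2 and 3 and of 7.01, 6.99 and 6.74 in 4NQO tongues 1, 2 and 3. Every treated tongue lay above every control tongue, and all 6 signals were above the reference. The means were 5.01 ± 0.05 and 6.91 ± 0.15 (SD, n = 3 each), a log2 difference of 1.91 or 3.75-fold, which is the value the gene was chosen by. It was the rank 26 difference upward among 18193 genes. It rests on 1 probe set, as no other was annotated to Tnfrsf18 alone. Leaving out each array in turn gave differences of 1.86 to 1.99, and leaving out both arrays of weak 5′ Gapdh signal gave 1.84.

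None of the 8 other measured genes passed the same limma test. At an unadjusted p under 0.05, Tnfrsf4, Icos and Il2ra were higher and Ikzf2 was lower, against 6.68% of all genes higher and 3.74% lower. In Tnfrsf4, Tnfrsf9 and Il2ra all 4NQO arrays lay above all control arrays, as in 9.59% of all genes, and in Ikzf4 they all lay below, as in 7.18%. The median log2 difference of the 8 genes was 0.31, beside -0.01 over all genes, and 6 of the 8 differences were above 0. By the methods' t-test with no adjustment 3 of the 8, Tnfrsf4, Tnfrsf9 and Il2ra, were higher and 0 lower at a p under 0.05, against 5.75% and 3.59% of all genes. These are small counts of a list that was picked around a known result, so they describe these genes only.

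**Figure D1:**
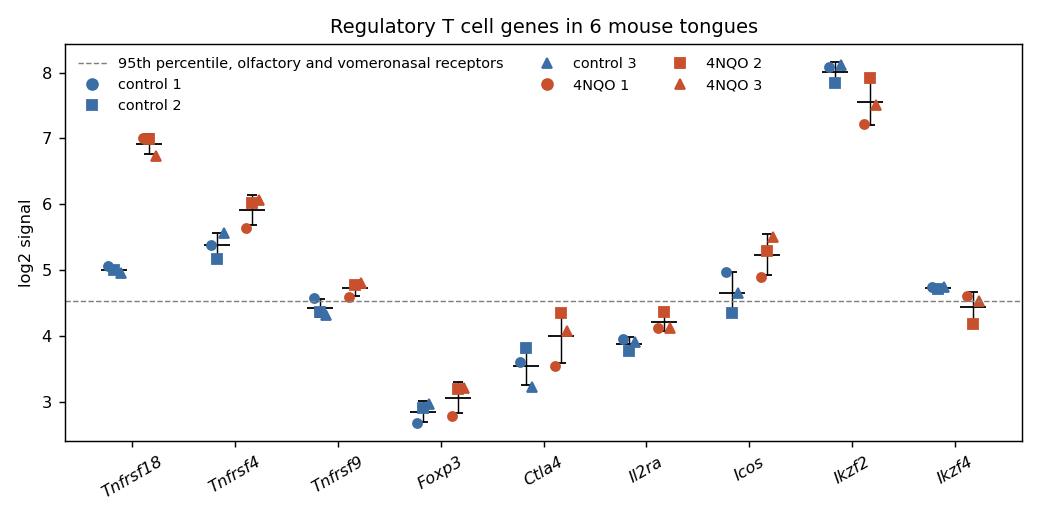
Log2 signal (y axis) of the 9 measured genes (x axis) on the 3 control and 3 4NQO arrays, 1 point per tongue, with bars for group mean ± SD and a dashed line at the reference of 4.53. Tnfrsf18 separates by 1.91 between groups, while the other genes differ by at most 0.57 upward (Icos) and 0.47 downward (Ikzf2).

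Both other TNF receptors of the set had all treated values above the controls, without passing the test. Tnfrsf4, the costimulatory receptor Ox40, had signals of 5.39, 5.17 and 5.56 in control and 5.64, 6.02 and 6.06 in 4NQO tongues. The groups did not overlap, but the gap between control 3 and 4NQO 1 was small beside the spread within each group. The means were 5.37 ± 0.19 and 5.91 ± 0.23 (SD, n = 3 each), a log2 difference of 0.54 (SE 0.18, 95% confidence interval 0.11 to 0.96), or 1.45-fold, with a limma adjusted p of 0.376. Tnfrsf9, the costimulatory receptor 4-1BB, had signals of 4.58, 4.37 and 4.32 in control and 4.59, 4.77 and 4.80 in 4NQO tongues. Control 1 and 4NQO 1 were almost equal, and 1 control array and 3 4NQO arrays were above the pooled reference. The log2 difference of Tnfrsf9 was 0.30 (SE 0.15, interval -0.05 to 0.65, limma adjusted p = 0.536), and its other probe sets gave -0.03 and 0.21. Those other probe sets lay below the reference on every array.

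The ligands of these receptors, which antigen-presenting cells mainly display, were named for this role and gave no call either. Tnfsf4, the ligand of Ox40, had means of 4.38 in both groups and a log2 difference of -0.00 (interval -0.38 to 0.38, limma adjusted p = 0.997). Tnfsf9, the ligand of 4-1BB, had signals of 3.77, 4.05 and 4.11 in control and 4.40, 4.14 and 4.38 in 4NQO tongues. These groups did not overlap, with a log2 difference of 0.33 (interval -0.03 to 0.69, limma adjusted p = 0.519), but no array was above the pooled reference.

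Foxp3, which defines regulatory T cells, was below the reference on all 6 arrays. Its signals were 2.67, 2.91 and 2.96 in control and 2.79, 3.20 and 3.20 in 4NQO tongues. The groups overlapped, since 4NQO 1 lay among the controls. The log2 difference was 0.22 (SE 0.15, interval -0.14 to 0.57, limma adjusted p = 0.658), and moved to 0.13 without control 1 and to 0.35 without 4NQO 1. With its defining gene at this level, the arrays do not show regulatory T cells in either group, nor do they show their absence, so the genes are referred to by name and not as a measure of that cell type.

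Ikzf2 and Ikzf4, the Ikaros family members, had lower means after 4NQO. Ikzf2 (Helios) had signals of 8.09, 7.85 and 8.11 in control and 7.22, 7.92 and 7.51 in 4NQO tongues. Only 4NQO 2 fell inside the control range. The means were 8.01 ± 0.14 and 7.55 ± 0.35 (SD, n = 3 each), a log2 difference of -0.47 (SE 0.20, interval -0.93 to -0.005, limma adjusted p = 0.473), and its other probe sets gave -0.64 and -0.09. Without 4NQO 1 it was -0.30. Ikzf4 (Eos) had signals of 4.74, 4.71 and 4.74 in control and 4.60, 4.18 and 4.53 in 4NQO tongues, with no overlap. These signals lay near the pooled reference, with 3 control and 2 4NQO arrays above it. The log2 difference of Ikzf4 was -0.29 (SE 0.16, interval -0.66 to 0.08, limma adjusted p = 0.573). Without 4NQO 2 it was -0.16. Its other probe sets gave -0.14 and 0.00 and lay below the reference on every array. The remaining Ikaros family genes also gave no call, with log2 differences of 0.47 for Ikzf1, 0.00 for Ikzf3 and -0.03 for Ikzf5.

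Icos, a costimulatory receptor of the CD28 family, had the largest upward difference of the 8 genes. Its signals were 4.97, 4.34 and 4.65 in control and 4.89, 5.29 and 5.51 in 4NQO tongues. The groups overlapped because control 1 lay above 4NQO 1. The means were 4.66 ± 0.31 and 5.23 ± 0.31 (SD, n = 3 each), a log2 difference of 0.57 (SE 0.23, interval 0.05 to 1.10, limma adjusted p = 0.439), or 1.49-fold. A dimmer Icos probe set had signals of 3.92, 3.54 and 4.02 in control and 4.40, 5.48 and 5.40 in 4NQO tongues. There the groups did not overlap and the log2 difference was 1.27, or 2.41-fold, with an adjusted p of 0.223 from limma on that probe set. The remaining Icos probe set gave 0.56, so its 3 probe sets shared a direction and none passed. Icosl, the ligand of Icos, had a log2 difference of -0.09 (interval -0.44 to 0.27).

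Ctla4, the inhibitory receptor of the CD28 family, had signals of 3.60, 3.81 and 3.23 in control and 3.55, 4.34 and 4.08 in 4NQO tongues. The groups overlapped through 4NQO 1, and no array was above the reference. The log2 difference was 0.44 (SE 0.24, interval -0.10 to 0.99, limma adjusted p = 0.559). It was 0.28 without control 3, 0.27 without 4NQO 2 and 0.11 without both of these arrays, whose 5′ Gapdh signal was weak. Its ligands on antigen-presenting cells gave 0.29 for Cd80 and 0.25 for Cd86, with adjusted p of 0.609 and 0.792.

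Il2ra, the CD25 chain of the IL-2 receptor, had signals of 3.95, 3.77 and 3.91 in control and 4.13, 4.37 and 4.13 in 4NQO tongues. All treated arrays lay above the controls, although none was above the reference. The log2 difference was 0.33 (SE 0.14, interval 0.003 to 0.65, limma adjusted p = 0.473), whereas the second Il2ra probe set gave -0.09. That probe set also lay below the reference on every array. Il2, the cytokine that binds this receptor, had a log2 difference of 0.10 (interval -0.47 to 0.68).

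**Figure D2:**
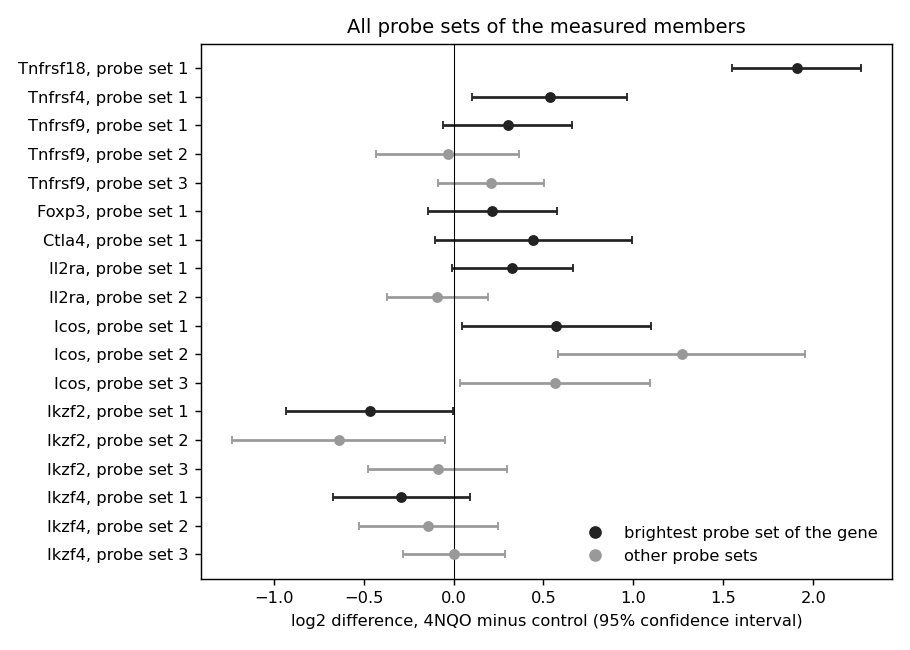
Log2 difference, 4NQO minus control (x axis), with its 95% confidence interval for all 18 probe sets of the 9 measured genes (y axis). The intervals come from the separate limma fit over probe sets. The 3 Icos probe sets lie at 0.57, 1.27 and 0.56, while probe sets of Tnfrsf9 and Il2ra fall on both sides of 0. All Il2ra signals and those of the dimmer Tnfrsf9 probe sets lay below the reference of 4.53.

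Within the 3 treated tongues, Tnfrsf18 was at 7.01 in 4NQO 1 and 6.99 in 4NQO 2, nearly equal, and lowest in 4NQO 3. With arrays centred on their medians 4NQO 2 was highest, at 7.09 against 7.03 in 4NQO 1, and 4NQO 3 stayed lowest. 4NQO 1 was lowest of the 3 in 6 of the 8 other genes, namely Tnfrsf4, Tnfrsf9, Foxp3, Ctla4, Icos and Ikzf2, beside 32.2% of all genes. Its difference from the mean of the other treated tongues ran from -0.20 (Tnfrsf9) to -0.66 (Ctla4) in these genes. Among them only Ikzf2 had a lower treated mean, so there 4NQO 1 lay furthest from the controls. Several marker lists had the same tongue low. The tongue 4NQO 1 was lowest in 13 of 15 markers of macrophages and dendritic cells, in 5 of 5 NK cell markers, in 6 of 6 mast cell markers and in 10 of 16 T cell lineage genes. It was also lowest in 5 of 6 neutrophil markers and 5 of 7 fibroblast markers. Nearer to the 32.2% of all genes were 7 of 16 T cell activation genes and 3 of 8 endothelial markers. Below that share were 1 of 5 B cell, 1 of 10 keratinocyte and 2 of 10 skeletal muscle markers. The order was not tested, and the part of these cell types in the signals of the members was not tested.

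Over all 6 arrays, the Pearson correlation with Tnfrsf18 was between 0.49 (Foxp3) and 0.87 (Il2ra) for the 6 genes with higher treated means, and -0.72 for Ikzf2 and -0.76 for Ikzf4. The arrays form 1 cluster per group in Tnfrsf18, so these values mainly repeat the group difference and are given as a description with no p. For Il2ra 3.28% of all genes had a higher correlation, and for Foxp3 21.1%. The 5 genes most like Tnfrsf18 by this measure, at 0.995 to 0.996 over 6 arrays, were Dctd, Gsta4, Adam9, Slfn9 and Brca1, none of them a member. Dctd, a deaminase of deoxycytidylate, had signals of 4.64, 4.65 and 4.57 in control and 6.10, 5.98 and 5.73 in 4NQO tongues. Log2 differences were 1.32 for Dctd, 1.18 for the glutathione transferase gene Gsta4, 0.26 for the metalloprotease gene Adam9, 0.90 for Slfn9 and 1.75 for the DNA repair gene Brca1. 

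The wider lists of T cell and TNF family genes gave no calls. Over all 18 lists other than the members, 194 genes had a probe set of their own, of which limma called 0. An unadjusted p under 0.05 was reached by 22 in the upward and 5 in the downward direction. Over all genes 6.68% were higher and 3.74% lower at such a p, and 9.59% had all 4NQO arrays above all controls. Of 16 measured T cell lineage genes, 2 were higher and 0 lower at such a p, 2 had all 4NQO arrays above all controls, and the median log2 difference was 0.15. Cd3g, a chain of the T cell receptor complex, had signals of 3.74, 3.45 and 3.33 in control and 3.67, 5.01 and 4.66 in 4NQO tongues. It was high in 4NQO 2 and 4NQO 3 and within the control range in 4NQO 1, with a log2 difference of 0.94 (SE 0.32, limma adjusted p = 0.374). Cd6, a surface receptor of T cells and the other gene at this level, had 3.92, 3.58 and 3.67 in control and 3.99, 4.03 and 4.21 in 4NQO tongues. All 3 treated tongues lay above the controls, with a log2 difference of 0.35 (limma adjusted p = 0.463), and no array was above the reference. Cd3d, which did not reach that level, had 4NQO 1 apart, with 4.31 in 4NQO 1 against 5.67 and 5.46 in the other treated tongues and controls of 4.61, 4.24 and 4.55. Cd4 and Cd8a, the coreceptors, had log2 differences of -0.02 and 0.07, and Cd3e of 0.16. In this list 7 of 16 genes had a mean above the reference.

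Other regulatory T cell genes were read next. Of 13 measured genes, 0 were called by limma and 0 had an unadjusted p under 0.05, and their median log2 difference was 0.03. The smallest p belonged to Il10, a suppressive cytokine, with a difference of 0.18 (limma adjusted p = 0.542). The chemokine receptors Ccr4 (-0.25) and Ccr8 (-0.16) and the integrin gene Itgae (0.42) followed. Il10, Ccr4 and Ccr8 lay below the reference on every array, and Il10 had means of only 1.85 in control and 2.03 in 4NQO tongues. In this list 9 of 13 genes had a mean above the reference.

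Among 16 measured T cell activation and effector genes, an unadjusted p under 0.05 was reached by 5 upward and 0 downward. Over all genes 6.68% and 3.74% did so, and the median log2 difference of the 16 was 0.08. Cd44, an adhesion receptor that epithelial cells also carry, had signals of 9.60, 9.84 and 9.78 in control and 10.31, 10.56 and 10.21 in 4NQO tongues. The groups did not overlap, and the log2 difference was 0.62 (SE 0.14, limma adjusted p = 0.171). Gzmb, a granzyme of cytotoxic lymphocytes, differed by 0.83 (limma adjusted p = 0.316), Il17a, a cytokine, by 0.45 (0.381) and Havcr2, an inhibitory receptor, by 0.58 (0.396). Gzmb, Il17a and Havcr2 lay below the reference on every array, and the groups overlapped in Gzmb and Havcr2. Only 2 of the 16 genes had a mean above the reference.

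In IL-2 receptor signalling, 0 of 9 genes had an unadjusted p under 0.05, with a median log2 difference of 0.14 and values such as 0.14 for the receptor chain Il2rb and -0.23 for the transcription factor Stat5a. In the CD28 family and its ligands, 1 of 10 genes was higher and 1 lower at that level, beside 6.68% and 3.74% of all genes. The higher gene was Pdcd1lg2, a ligand of PD-1, with a log2 difference of 0.36 (limma adjusted p = 0.380). The lower was Vtcn1, an inhibitory B7 family member, with -0.29 (limma adjusted p = 0.377). Both lay below the reference on every array. Cd274, the other PD-1 ligand, had 0.53 (limma adjusted p = 0.490).

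The rest of the TNF receptor family gave no call. Over 24 measured receptors, log2 differences ran from -0.31 to 0.59 with a median of 0.08, and 0 had an unadjusted p under 0.05 by limma. The highest was Tnfrsf12a, the receptor of Tweak, at 0.59 (limma adjusted p = 0.549). Next by p were Tnfrsf21 with 0.31 (0.573), Tnfrsf23 with 0.24 (0.592) and Fas, a death receptor, with -0.26 (0.609). Tnfrsf21 was the 1 receptor with all 4NQO arrays above all controls, and 1 receptor had them all below, beside 9.59% and 7.18% of all genes. All Tnfrsf23 signals lay below the reference. Of 14 TNF family ligands, 2 upward and 2 downward differences had an unadjusted p under 0.05, beside 6.68% and 3.74% of all genes. The median of the 14 was 0.02. A mean above the reference was found for 4 of the 14, of those named next only for Ltb. Ltb, a lymphotoxin subunit, had 0.83 (limma adjusted p = 0.419) and Tnfsf13b, the B cell survival factor Baff, 0.78 (0.436), while Tnfsf8, the CD30 ligand, had -0.45 (0.436) and Cd70, the CD27 ligand, -0.35 (0.464).

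TRAF and NF-kB genes carry signals of these receptors inside the cell. Of 20 measured genes, 3 had an unadjusted p under 0.05, all of them upward, beside 6.68% of all genes. The median log2 difference of the 20 was 0.03. Traf1, an adaptor of TNF family receptors, had signals of 3.86, 3.60 and 3.81 in control and 4.22, 4.37 and 4.40 in 4NQO tongues. The groups did not overlap, with a log2 difference of 0.57 (SE 0.14, limma adjusted p = 0.208). No array was above the reference for Traf1, while 18 of the 20 genes had a mean above it. Siva1, a protein that binds Gitr and CD27, had 0.31 (limma adjusted p = 0.428), and Tnfaip3, an inhibitor of NF-kB signalling, 0.49 (0.470).

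**Figure D3:**
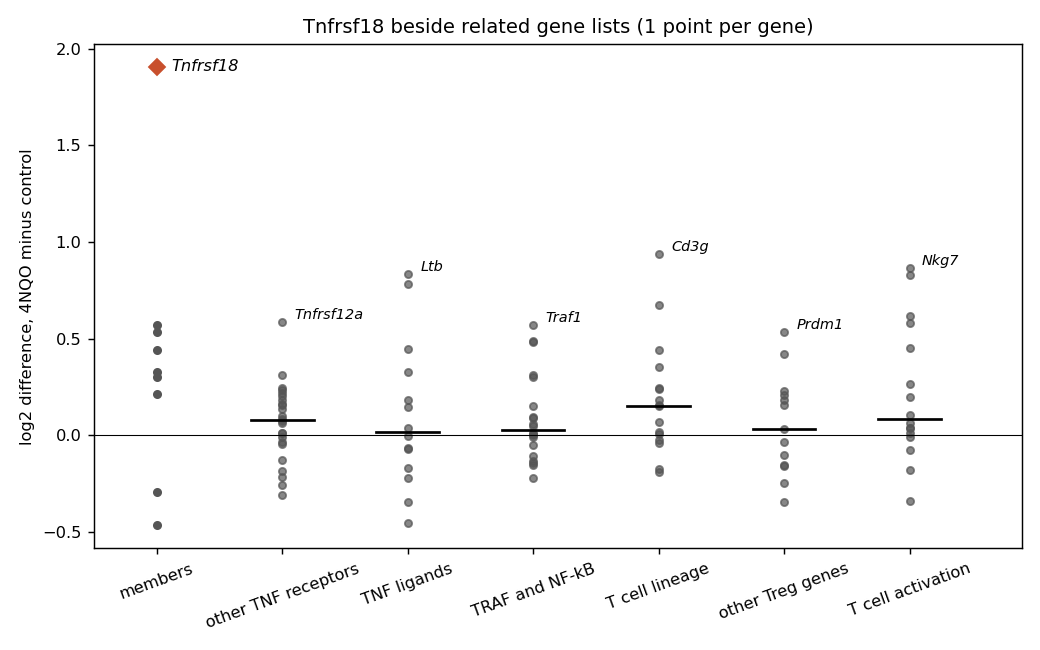
Log2 difference, 4NQO minus control (y axis), of each measured gene in Tnfrsf18 and the related lists (x axis), 1 point per gene with list medians as lines. The other TNF receptors lie between -0.31 and 0.59, below the 1.91 of Tnfrsf18.

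Markers of other cells that a tongue could hold were read in the same way. Macrophage and dendritic cell markers had 6 of 15 genes higher at an unadjusted p under 0.05, beside 6.68% of all genes. All 4NQO arrays lay above all controls in 5 of 15, beside 9.59% of all genes, and the median log2 difference was 0.37. The list median lay between -0.25 and 0.19 on control arrays and at 0.14, 0.59 and 0.84 on 4NQO arrays 1, 2 and 3, relative to the control means. The 6 were Itgax, H2-Ab1, H2-Aa, Cd74, Ccr7 and Ptprc, of which Ptprc is carried by all leukocytes and Ccr7 by T cells too. Macrophage genes of the list had smaller differences, none at an unadjusted p under 0.05. They were 0.37 for Cd68, 0.30 for Adgre1, 0.25 for Cd14, 0.23 for Csf1r, -0.01 for Itgam and -0.02 for Lyz2. The remaining dendritic cell genes of the list were of like size, with 0.42 for Flt3, 0.34 for Cd207 and 0.21 for Xcr1. None of these reached such a p either, so the list does not separate dendritic cells from macrophages. In the main fit limma called 0 of the 15 genes. Itgax (CD11c), an integrin of dendritic cells, had a difference of 1.15 (limma adjusted p = 0.0703) and H2-Ab1, an MHC class II chain, of 1.25 (0.145). Of 5 NK cell markers 1 was higher, Klrd1, a receptor of NK and some T cells, with 4.03, 3.74 and 3.86 in control and 4.72, 5.88 and 5.91 in 4NQO tongues. Its groups did not overlap, with a difference of 1.63 (SE 0.32, limma adjusted p = 0.116). Keratinocyte markers had 2 of 10 higher at an unadjusted p under 0.05, beside the same 6.68% of all genes, and a median of 0.30. Medians were 0.06 for NK cells, -0.07 for B cells, -0.08 for neutrophils, -0.02 for endothelium, -0.15 for skeletal muscle, -0.22 for fibroblasts and -0.00 for mast cells. At an unadjusted p under 0.05, 1 of 5 B cell markers (Cd79a, -0.59) was lower, beside 3.74% of all genes. So was 1 of 7 fibroblast markers (Col1a2, -0.50), and 0 of these 7 had a difference above 0. Klrd1 was called without 4NQO 1 (adjusted p = 0.0347) and Itgax with arrays centred on their medians (adjusted p = 0.0498).

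**Figure D4:**
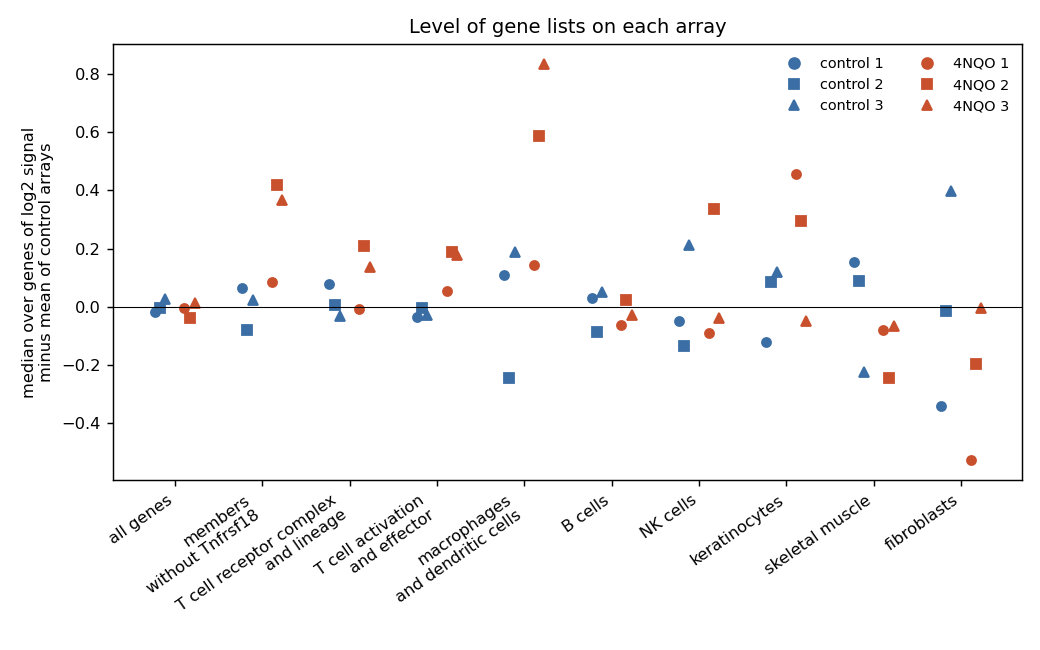
Median over the genes of a list of the log2 signal minus the control mean (y axis) on each of the 6 arrays. The 8 members other than Tnfrsf18 stand at 0.09, 0.42 and 0.37 on 4NQO arrays 1, 2 and 3, and macrophage and dendritic cell markers at 0.14, 0.59 and 0.84.

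On chromosome 4, the 6 measured genes nearest to Tnfrsf18, with Tnfrsf4 among them, gave no call. In gene order the log2 differences were 0.36 for B3galt6 (SE 0.17, limma adjusted p = 0.518), 0.09 for Sdf4, 0.54 for Tnfrsf4, 0.01 for Ttll10 (SE 0.18), -0.22 for Gm13648 and 0.11 for 9430015G10Rik. B3galt6, a galactosyltransferase gene, had 6.81, 6.31 and 6.68 in control tongues and 6.96 in each 4NQO tongue, so that its groups did not overlap.

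**Figure D5:**
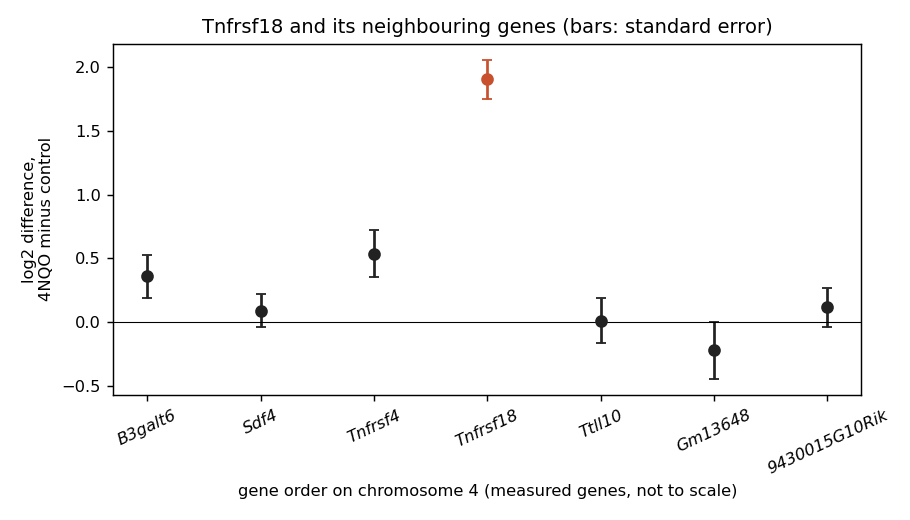
Log2 difference, 4NQO minus control (y axis), of Tnfrsf18 and the 3 nearest measured genes on each side, in gene order on chromosome 4 (x axis, not to scale), with standard errors as bars. Tnfrsf18 stands at 1.91, Tnfrsf4 at 0.54 and Ttll10 at 0.01.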

How the data were processed

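RNA of 3 control and 3 4NQO tongues of individual mice was measured on 6 arrays. The authors deposited log2 signals, 1 per probe set and array, normalized in R with packages of Bioconductor. For the normalization, a method was not given in the sources used here. The paper cites another deposited series for its arrays. Groups and replicate numbers were taken from the sample titles.

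Probe sets were named from the platform annotation. Of 45101 probe sets, 34945 had 1 gene and were used, while 932 with several genes, 9160 unnamed ones and 64 array controls were left out. Each gene was represented by its probe set with the highest mean over 6 arrays. By Entrez ID, 18032 of 18193 genes were found in the GRCm38.p6 table and 0 symbols changed. limma 3.58.1 in R 4.3.3 (lmFit, and eBayes with an intensity trend) compared the groups, with Benjamini-Hochberg adjustment over all genes and a threshold of 0.05. Probe sets that do not represent a gene were tested in a separate limma fit over all single-gene probe sets. Scripts were tested on simulated data. Arrays give no read depth, and 3 arrays per group limit the precision. SAM, which the methods name, was not run.

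The members and the 19 gene lists, the members included, were chosen with earlier results of these data known. Genes named were the members, up to 4 genes of each signalling list with the smallest p, the 5 genes most correlated with Tnfrsf18 and 3 measured neighbours on each side. Cell type markers came from fixed lists. Outside this rule, the ligands Tnfsf4, Tnfsf9, Icosl, Cd80, Cd86 and Il2 were named by role, and Cd3e, Cd4 and Cd8a as defining markers. The olfactory and vomeronasal receptor reference and the fit that leaves out control 3 and 4NQO 2 (weak 5′ Gapdh signal) were chosen after seeing the data. Of the list genes, 20 had no probe set of their own. Alternatives were quantile normalization, array centring, removal of dim genes, the mean or the most variable probe set per gene, eBayes without the trend or with robust priors, a block for replicate number, removal of each array in turn and the methods' t-test. Confidence intervals are at 95%.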

Additional observations from a re-analysis of the deposited data

How the results depend on the processing

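The log2 difference of Tnfrsf18, by which it was picked, was 1.84 to 1.99 under the 9 alternatives that can change it. The other 8 leave the mean of its single probe set as it is. Of the 8 other members, limma called 0 under each of its alternatives, with 5 of them left when dim genes were removed, and 0 also without any single array. The methods' t-test without adjustment called 3 members, all higher, where 5.75% of all genes were, and 0 after Benjamini-Hochberg. Over the limma alternatives and the adjusted t-test, the lowest adjusted p of these 8 genes was 0.237, for Icos with the probe set of largest SD. Of the 8 members, 7 kept their direction, while Tnfrsf9 turned to -0.0328 with the probe set of largest SD. That setting takes another Tnfrsf9 probe set, with means of 2.58 in control and 2.54 in 4NQO tongues, below the reference.

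The 24 calls over all genes became 65 with centred arrays, 37 without dim genes, 47 with robust eBayes, 15 with the probe set of largest SD and 4 without both arrays of weak 5′ Gapdh signal. They became 2 (1700 unadjusted) with the methods' t-test and ranged from 0 (without control 2) to 27 (without 4NQO 3) when 1 array was left out. List genes other than the members gave 1 call with centred arrays (Itgax), 0 to 1 with 1 array left out (Klrd1 without 4NQO 1) and 15 with the unadjusted t-test. With the replicate number as a block, 2 genes and 0 members were called. Deviations from the group means correlated at 0.29, -0.51 and 0.05 for same-numbered arrays, and at -0.52 to 0.48 for unlike-numbered ones. Centring within 3 arrays ties these values to each other, so they cannot settle whether the numbers mark pairs. Faint signals limit Foxp3, Ctla4 and Il2ra, which lay below the reference on every array.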
